A study of Homo sapiens with 6 samples.

Results

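The collapsin response mediator proteins (CRMPs) are encoded by 5 genes, CRMP1, DPYSL2, DPYSL3, DPYSL4 and DPYSL5, and these were taken by gene name from the 44591 genes listed in each library. DPYSL2 encodes CRMP2, DPYSL3 encodes CRMP4, DPYSL4 encodes CRMP3 and DPYSL5 encodes CRMP5. Of the 5 genes, 4 were among the 16222 genes that passed the filter on low counts, and DPYSL5 did not. The libraries came from A2780, a human ovarian cancer cell line labelled as wild type and grown in DMEM with fetal bovine serum. The untreated group comprised 3 control libraries, also labelled 48 h. The r-CRMP2 group comprised 3 libraries from cells kept for 48 h with 40 ng/ml of human recombinant CRMP2 in the medium. Both groups were cells of 1 line, which limits them as a model of a tumour. RNA with a poly(A) tail was sequenced, so the counts measure the transcripts of the cells themselves and not the protein that was added.

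CRMPs are cytosolic phosphoproteins related in sequence to dihydropyrimidinase, an enzyme of pyrimidine breakdown, but they are known as binding partners of the cytoskeleton. CRMP2 binds tubulin dimers and favours microtubule assembly, and phosphorylation by CDK5 and then by GSK3 weakens that binding. The proteins were first described in neurons, where they act downstream of the guidance cue semaphorin 3A, and several members are also expressed in tumours. The comparison asked how the cells' own CRMP transcripts stood after exposure to the recombinant protein of 1 family member.

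Each library held between 21888530 and 25711353 counts. The groups were tested by edgeR's quasi-likelihood method on TMM-scaled counts. TMM corrects library totals for a shift in composition, and CPM here means counts scaled in this way to a common total of 1000000. TMM factors ran from 1.10 to 1.12 for untreated cells and from 0.878 to 0.922 for r-CRMP2 cells, so that the scaling itself differed between the groups. It moved the median log2 fold change of all genes tested by 0.31, from -0.34 with library size alone to -0.03 with TMM. TPM, which also divides by gene length and allows levels to be compared between genes, holds no such correction. The labels do not say in full how the replicates were grown apart, so p-values measure the spread between these samples, which may be technical. For the labelled cell type, the epithelial keratins KRT18, KRT8 and KRT7 were at 1986, 1362 and 952 TPM on average in the untreated libraries. MSLN was at 272 TPM there, while EPCAM, PAX8, MUC16 and KRT19 were at only 6.3, 2.44, 2.38 and 2.32 TPM. WT1 and CDH1 were under 1 TPM in all 6 libraries. VIM, listed below as a fibroblast marker, was at 1640 TPM in the untreated libraries.

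The 5 genes were expressed at very unequal levels, and their order by TPM was the same in 6 of 6 libraries. DPYSL2 was the most abundant, followed by DPYSL3, DPYSL4, CRMP1 and DPYSL5. The TPM ranges of neighbours in that order did not overlap over the 6 libraries. Of 19233 protein-coding genes listed, 84% had a lower mean TPM than DPYSL2, compared with 62.5% for DPYSL3, 51.7% for DPYSL4, 38.4% for CRMP1 and 8.53% for DPYSL5.

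DPYSL2 (CRMP2, chromosome 8, 26371709 to 26515693, plus strand in the deposited hg19 coordinates) was the endogenous counterpart of the added protein. It was counted 2396, 1994 and 2210 times in untreated cells, compared with 2672, 2530 and 3178 times in r-CRMP2 cells. These corresponded to 86.1, 81.3 and 80.8 CPM and to 125, 128 and 138 CPM. Every r-CRMP2 library lay above every untreated library, in CPM and in TPM. DPYSL2 was upregulated from 82.7 ± 2.97 to 130 ± 7.01 CPM (SD, n = 3), a 1.58-fold rise (log2 fold change 0.66, SE 0.05, 95% interval 0.52 to 0.79, adjusted p = 5.48e-08 by edgeR with Benjamini-Hochberg adjustment). In TPM the mean was 38.5 ± 0.863 in untreated and 48.4 ± 3.38 in r-CRMP2 cells (SD, n = 3). RNA from whole cultures cannot tell more expressing cells from more RNA per cell.

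DPYSL3 (CRMP4, chromosome 5, 146770371 to 146889619, minus strand) encodes a member that associates with actin bundles. Its level was 22.5, 29.6 and 26.1 CPM in the untreated and 33.8, 39.4 and 34.5 CPM in the r-CRMP2 libraries. The groups did not overlap in CPM, with 29.6 as the highest untreated and 33.8 as the lowest r-CRMP2 value. DPYSL3 rose 1.38-fold, from 26.1 ± 3.54 to 35.9 ± 3.07 CPM (SD, n = 3; log2 fold change 0.46, SE 0.13, 95% interval 0.26 to 0.66, edgeR adjusted p = 0.000361). Per length and without the TMM correction, the values were 9.60, 13.0 and 11.3 TPM against 12.2, 12.9 and 12 TPM, and these overlapped.

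DPYSL4 (CRMP3, chromosome 10, 134000414 to 134019280, plus strand) has been described as a target gene of p53. Its level was 6.94, 5.66 and 4.61 CPM in the untreated and 7.58, 8.90 and 8.53 CPM in the r-CRMP2 libraries. The groups were apart, and the untreated libraries were the more widely spread. DPYSL4 rose 1.45-fold, from 5.74 ± 1.17 to 8.34 ± 0.679 CPM (SD, n = 3; log2 fold change 0.54, SE 0.18, 95% interval 0.22 to 0.85, edgeR adjusted p = 0.00501). In TPM the untreated libraries were at 6.12, 5.14 and 4.14 and the r-CRMP2 libraries at 5.65, 6.04 and 6.16, with overlap.

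CRMP1 (chromosome 4, 5822491 to 5894810, minus strand), which has been described as a suppressor of invasion in lung cancer cells, did not share the rise. Its counts were 61, 44 and 58 in untreated cells, compared with 39, 35 and 27 in r-CRMP2 cells. The corresponding levels were 2.19, 1.79 and 2.12 CPM and 1.83, 1.77 and 1.18 CPM, and the groups overlapped. The log2 fold change was -0.37 (SE 0.21, 95% interval -0.89 to 0.16), which did not pass the test (edgeR adjusted p = 0.224). Without r-CRMP2 replicate 3, the lowest library, the log2 fold change was -0.18 (edgeR adjusted p = 0.604). In TPM, the values were 1.15, 0.965 and 1.13 against 0.806, 0.712 and 0.503, and on that scale all r-CRMP2 libraries were below all untreated ones. Among all genes tested, 55.9% were placed that way in TPM and 14% the other way.

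DPYSL5 (CRMP5, chromosome 2, 27070969 to 27173219, plus strand) is known as a target of autoantibodies in paraneoplastic neurological disease. It was counted 1, 0 and 2 times in the untreated and 1, 1 and 3 times in the r-CRMP2 libraries. The 0 counts in untreated replicate 2 allow up to 3 counts, or 0.137 per 1000000 counts of that library, with counting error alone considered. No fold change is given at this depth.

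**Figure D1:**
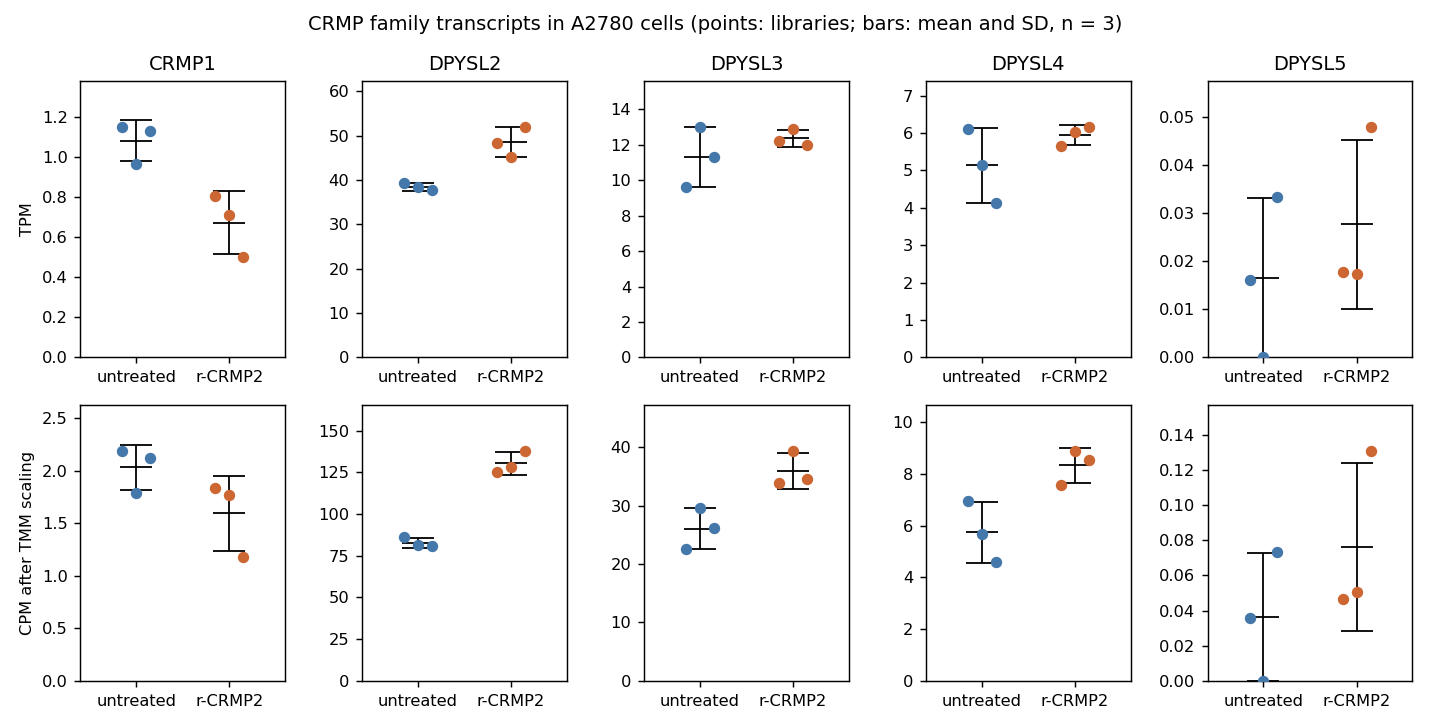
Level of each CRMP gene in TPM (upper row) and in CPM after TMM scaling (lower row), with untreated libraries in blue, r-CRMP2 libraries in orange, and bars at the mean and SD of 3 libraries. The groups are apart on both scales for DPYSL2, on the CPM scale alone for DPYSL3 and DPYSL4, and on the TPM scale alone for CRMP1, while DPYSL5 has at most 3 counts in a library.

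In all, 3 of the 4 CRMP genes tested were higher at an adjusted p under 0.05 and 0 were lower by edgeR, where CRMP1 had an unadjusted p of 0.163 and DESeq2 also called 0 lower. Of all genes tested, 28.2% were called higher and 30.1% lower by the same rule. The r-CRMP2 libraries lay wholly above the untreated libraries in CPM for 3 of the 4 genes and for 30.9% of all genes tested, and wholly below them for 0 of the 4 genes and for 33.3% of all genes tested. None of the 4 genes had a log2 fold change over 1 in size, a limit that 5.12% of all genes passed upward and 8.86% downward. The rise of DPYSL2 was above the fold change of 89.1% of the genes tested, compared with 85% for DPYSL4, 81.6% for DPYSL3 and 28.8% for CRMP1. By size in either direction, the change exceeded that of 72% of genes for DPYSL2 and 63.9% for DPYSL4. The same measure gave 57.4% for DPYSL3 and 48.1% for CRMP1.

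These calls depended in part on the scaling. With library size alone, DPYSL2 still rose (log2 fold change 0.35, edgeR adjusted p = 0.000108), whereas DPYSL3 was at 0.15 (edgeR adjusted p = 0.197) and DPYSL4 at 0.23 (edgeR adjusted p = 0.193). CRMP1 was then called lower, with a log2 fold change of -0.67 (edgeR adjusted p = 0.0255), where 52.1% of all genes tested were called lower and 13.4% higher. A change of scaling shifts all genes by about the same amount, so the distance of a member from the median gene is fixed by construction and is given as a value only. DPYSL2 was 0.68 above the median log2 fold change, DPYSL4 0.56 above it, DPYSL3 0.49 above it, and CRMP1 stood at -0.34 from it.

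**Figure D2:**
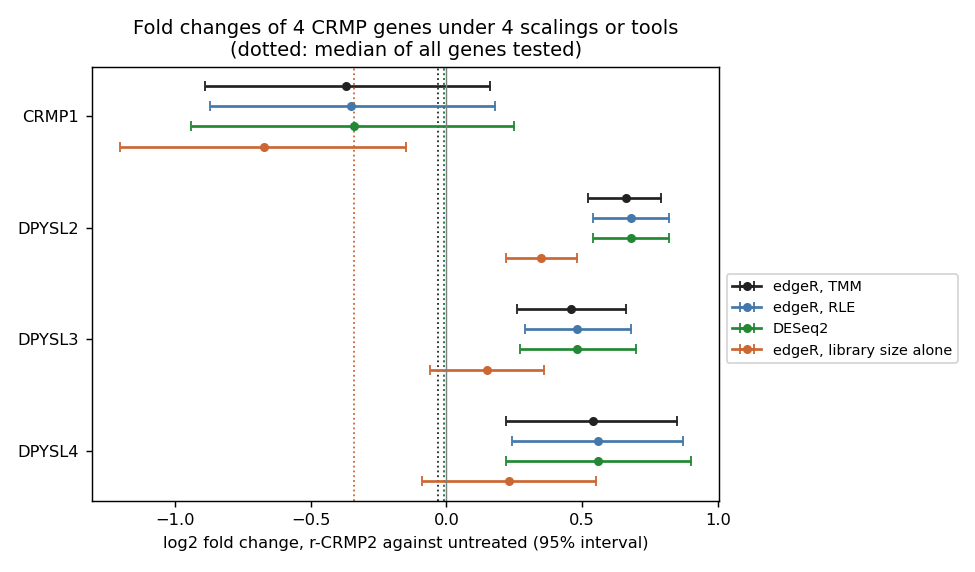
Log2 fold change of r-CRMP2 against untreated (horizontal axis) with 95% intervals for the 4 CRMP genes tested, by edgeR with TMM, edgeR with RLE factors, DESeq2 and edgeR with library size alone; dotted lines mark the median of all genes under each. Library size alone shifts each gene and the dotted line to the left together, and DPYSL2 stays above 0 under each of the 4.

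Ratios between members within a library are free of the scaling, because both genes share its total. The log2 ratio of DPYSL2 to CRMP1 counts was 5.30, 5.50 and 5.25 in the untreated and 6.10, 6.18 and 6.88 in the r-CRMP2 libraries. It was higher in every r-CRMP2 library, by 1.03 on average (two-sided exact permutation p = 0.1, the smallest that 3 against 3 libraries allow, and 0.2 after Benjamini-Hochberg adjustment over 6 ratios). DPYSL3 to CRMP1 differed by 0.84 and DPYSL4 to CRMP1 by 0.93, also without overlap (exact permutation p = 0.1 for each, adjusted 0.2). These 3 ratios share the CRMP1 counts and are therefore not separate evidence.

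Among the 3 upregulated genes, the ratios differed less. The log2 ratio of DPYSL3 to DPYSL2 was -1.67 ± 0.24 in untreated and -1.86 ± 0.15 in r-CRMP2 libraries (SD, n = 3; exact permutation p = 0.3). DPYSL4 to DPYSL2 differed by -0.10 (exact permutation p = 0.6) and DPYSL4 to DPYSL3 by 0.09 (exact permutation p = 0.8). With 3 libraries a group, these p-values do not show that the 3 genes rose equally.

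**Figure D3:**
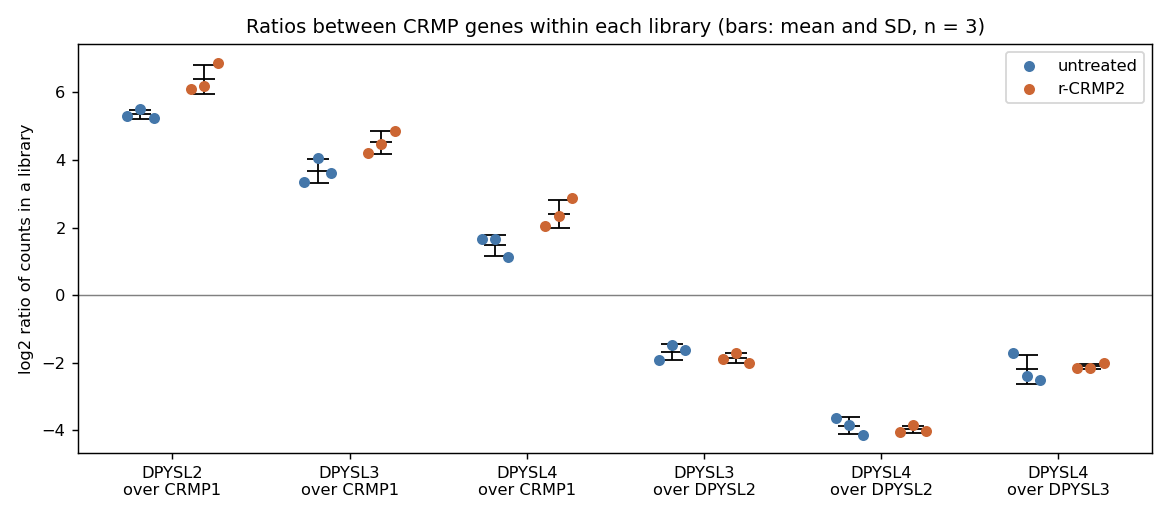
Log2 ratio of the counts of pairs of CRMP genes (vertical axis) in each untreated (blue) and r-CRMP2 (orange) library, with bars at the mean and SD of 3 libraries. The 3 ratios over CRMP1 are higher in every r-CRMP2 library, by 0.84 to 1.03 on average, and the other 3 overlap between the groups.

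Summed over the family, CRMP transcripts were at 56.3, 57.4 and 54.4 TPM in the untreated and at 67.0, 64.8 and 70.6 TPM in the r-CRMP2 libraries. The sum was higher in every r-CRMP2 library, with a log2 ratio of group means of 0.27 in TPM and 0.60 in CPM, and most of it was DPYSL2. DPYSL2 made up 68.7% ± 1.75 of the family's TPM in untreated and 71.7% ± 1.97 in r-CRMP2 libraries (SD, n = 3; exact permutation p = 0.2, adjusted 0.5 over 5 shares). CRMP1 went from 1.93% ± 0.218 to 1% ± 0.258 without overlap (exact permutation p = 0.1, adjusted 0.5). Its share rests on the same CRMP1 counts as the ratios above and is not separate evidence from them. The share of DPYSL3 was 20.2% ± 2.85 and 18.4% ± 1.48 (exact permutation p = 0.4), and that of DPYSL4 was 9.15% ± 1.63 and 8.83% ± 0.455 (exact permutation p = 0.8).

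Sequence shared with other genes, which could misplace reads, was counted for each member. In GENCODE transcripts, 2.30% of the 31-base stretches of CRMP1 also occurred in another gene, nearly all in its neighbour EVC, compared with 1.07% for DPYSL2, 3.41% for DPYSL5 and 0% for DPYSL3 and DPYSL4. CRMP1 and DPYSL2 had 4 such stretches in common. The genes listed inside or across members in the deposited coordinates were a pseudogene in DPYSL2 with 0 counts in the untreated and 4 in the r-CRMP2 group, an antisense gene in DPYSL3 with 0 and 1, and one at the end of DPYSL5 with 0 in both. Whether reads were counted by strand was not given in the sources used here.

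The study addressed HIF-1 signalling, and the bases before the RefSeq start sites were therefore searched for ACGTG and GCGTG, the core letters that hypoxia-inducible factors bind, on both strands. Over 250 bases, 18.5% of 35116 promoters in the RefSeq table (GRCh38.p14) held ACGTG and 32.2% held GCGTG. The sequences of 2 upregulated members are shown because they rose by similar amounts. They run from 5′ to 3′ on the gene's strand, with the matches on either strand in capitals.
DPYSL3 (start site 1, chr5:147510069-147510318, minus strand): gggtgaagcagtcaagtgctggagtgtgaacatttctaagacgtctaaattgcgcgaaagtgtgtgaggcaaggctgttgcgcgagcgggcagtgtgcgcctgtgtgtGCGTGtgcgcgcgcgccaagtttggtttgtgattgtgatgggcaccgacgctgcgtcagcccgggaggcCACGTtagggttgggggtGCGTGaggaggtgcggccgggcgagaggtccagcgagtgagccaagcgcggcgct
DPYSL4 (chr10:132186698-132186947, plus strand): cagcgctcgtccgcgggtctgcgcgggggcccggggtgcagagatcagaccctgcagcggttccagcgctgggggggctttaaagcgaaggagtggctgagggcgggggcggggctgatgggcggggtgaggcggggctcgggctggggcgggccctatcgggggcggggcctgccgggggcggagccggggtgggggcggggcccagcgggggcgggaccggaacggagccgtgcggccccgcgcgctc
DPYSL3 start site 1 held ACGTG 73 bases before the start, on the opposite strand, and GCGTG 142 and 55 bases before it. Its start site 2 held no ACGTG and 2 matches of GCGTG. Neither string was found before DPYSL4, which is 80% G and C over this stretch. Of the 4 start sites of CRMP1, which did not rise, 1 held ACGTG and the other 3 held GCGTG. Of the 2 start sites of DPYSL5, 1 held GCGTG and neither held ACGTG. No DPYSL2 promoter was used here. A match is a description of letters and does not show binding. The shares over all promoters were counted per start site and were not matched for G and C content. Which start sites these cells use was not tested.

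Genes known to work with CRMPs were followed in 5 lists with 61 genes in all, of which 49 were tested. Of these, 18 were higher and 13 lower (edgeR adjusted p under 0.05), against 28.2% and 30.1% of all genes, and their median log2 fold change was 0.03. With library size alone, 6 were higher and 24 lower, with 13.4% and 52.1% of all genes.

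Kinases and phosphatases that act on CRMPs changed in both directions, with 5 higher and 4 lower of 14 tested and a median log2 fold change of -0.02. Of all genes tested, 28.2% were called higher and 30.1% lower. With library size alone, 1 was higher and 9 lower, where 13.4% and 52.1% of all genes were. Without untreated replicate 2, 3 were higher and 4 lower. The activators of CDK5 fell. CDK5R1, which encodes p35, went from 6.25 ± 1.43 to 3.13 ± 0.472 CPM (SD, n = 3; log2 fold change -1.0, edgeR adjusted p = 0.000156). CDK5R2, which encodes p39, went from 1.11 ± 0.0321 to 0.252 ± 0.0454 CPM (log2 fold change -2.12, edgeR adjusted p = 0.000158), with 88 and 16 counts in all. CDK5 itself was at 31.9 ± 1.82 and 30.1 ± 1.59 CPM (edgeR adjusted p = 0.37). GSK3B fell by 0.24 on the log2 scale (edgeR adjusted p = 0.00563), while the log2 fold change of GSK3A was 0.03 (edgeR adjusted p = 0.755). CDK5, GSK3B and GSK3A were added for their role after their values were seen. FYN, a Src family kinase, fell by 0.36 (edgeR adjusted p = 0.000119). DYRK2, a kinase that primes CRMP4 for GSK3, rose by 0.51 (edgeR adjusted p = 5.29e-05), and the phosphatase subunits PPP1CC and PPP1CB rose by 0.48 and 0.40 (edgeR adjusted p = 2.54e-06 and 8.76e-06). The calls of DYRK2 and PPP1CB ended with library size alone, at log2 fold changes of 0.20 and 0.09 (edgeR adjusted p = 0.0609 and 0.175).

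In the list of the semaphorin 3A receptor complex and its effectors, 5 of 12 genes tested were higher and 3 lower, with a median of 0.13. Library size alone gave 1 higher and 4 lower. The shares of all genes tested were 28.2% higher and 30.1% lower, and 13.4% and 52.1% with library size alone. The transcript of the ligand, SEMA3A, was at 6.54 ± 0.312 and 6.58 ± 1.25 CPM (SD, n = 3; edgeR adjusted p = 0.932) and was likewise added after its values were seen. Its binding receptor NRP1 rose from 23.7 ± 2.01 to 32.1 ± 0.619 CPM (log2 fold change 0.43, edgeR adjusted p = 0.00015). Of the plexins, which signal for neuropilins, PLXNA3 rose by 0.45 (edgeR adjusted p = 5.99e-06), whereas PLXNA2 fell by 0.68 (edgeR adjusted p = 0.00372) and PLXNA1 fell by 0.35 (edgeR adjusted p = 0.000246). With library size alone the rises did not pass, at 0.14 for PLXNA3 (edgeR adjusted p = 0.0657) and 0.12 for NRP1 (edgeR adjusted p = 0.208), while PLXNA2 and PLXNA1 stayed lower. FARP2, an exchange factor that binds plexins, fell by 0.72 (edgeR adjusted p = 2.42e-05), and the GTPase RHOA rose by 0.53 (edgeR adjusted p = 5.5e-07).

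Among cytoskeletal and transport partners, 7 of 17 genes tested were higher and 4 lower, with a median of 0.13. Under library size alone, 3 passed upward and 8 downward. For all genes tested, the shares were 28.2% and 30.1% with TMM, and 13.4% and 52.1% with library size alone. Genes of tubulin, which CRMP2 binds, supplied the 3 largest rises of the list. TUBB went from 1566, 1439 and 1499 CPM to 2375, 2536 and 2484 CPM, with all r-CRMP2 libraries above the untreated ones (log2 fold change 0.72, SE 0.04, edgeR adjusted p = 1.57e-08). TUBB3, the beta-tubulin of neurons that many tumour cells also express, rose by 0.67 (edgeR adjusted p = 1.51e-06) and TUBA4A by 0.65 (edgeR adjusted p = 4.29e-07). Tubulins did not all rise: TUBB6 fell by 0.32 (edgeR adjusted p = 0.000211). Falls were also found for MICALL1, which acts in recycling endosomes (25.5 ± 0.543 to 14.7 ± 1.63 CPM, log2 fold change -0.79, edgeR adjusted p = 6.14e-07), and for KLC1, a light chain of the kinesin that carries CRMP2 (log2 fold change -0.30, edgeR adjusted p = 0.000602). Tubulin genes are close paralogs, so reads may have been split among them.

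Of the membrane channels that CRMP2 is known to bind or regulate, 5 of 10 were tested, and 0 were higher and 2 lower by edgeR (0 higher also at an unadjusted p under 0.05 and by DESeq2). Among all genes tested, 28.2% were called higher and 30.1% lower. GRIN2D, a subunit of NMDA receptors, fell from 31.3 ± 2.50 to 15 ± 2.32 CPM (SD, n = 3; log2 fold change -1.06, edgeR adjusted p = 5.29e-08). SCN9A, which encodes the sodium channel Nav1.7, fell from 2.78 ± 0.148 to 1.13 ± 0.266 CPM (log2 fold change -1.30, edgeR adjusted p = 0.000154). The median over the 5 was -0.88, the value of GRIN2C, which was not called (edgeR adjusted p = 0.146, 53 and 23 counts in all). Under 1 TPM in all 6 libraries were 9 of the 10 genes, among them GRIN1 and SCN9A itself (means 0.693 and 0.224 TPM).

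CRMPs resemble the second enzyme of pyrimidine breakdown, and the transcript of that enzyme, DPYS, had 0 counts in the untreated and 3 in the r-CRMP2 group. UPB1, the last enzyme, had 4 and 2 counts. DPYD, the first and rate-limiting enzyme, was the only one of the 3 that was tested, and it rose from 13.9 ± 1.45 to 24.9 ± 0.375 CPM (SD, n = 3; log2 fold change 0.84, edgeR adjusted p = 2.56e-07).

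**Figure D4:**
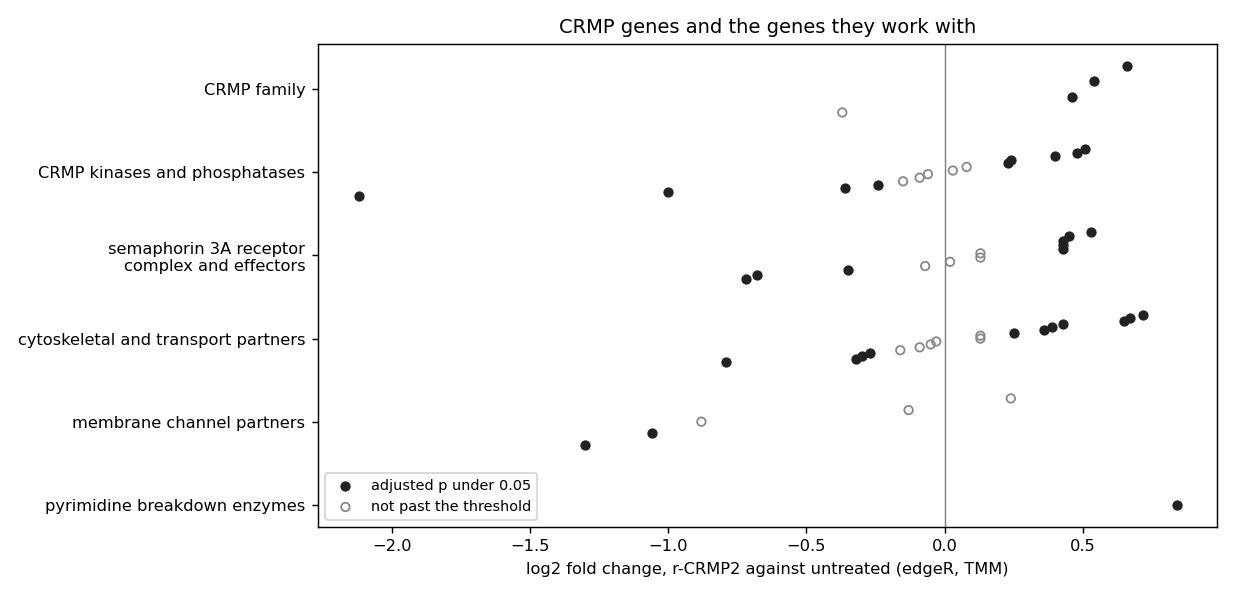
Log2 fold change by edgeR with TMM (horizontal axis) of the CRMP genes and of the tested genes of 5 lists of CRMP partners, with filled points past an adjusted p of 0.05 and open points not past it. Of the 49 list genes, 18 filled points lie to the right of 0 and 13 to the left, and the 2 farthest to the left are CDK5R2 and SCN9A.

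CRMP genes are also used as neuronal and stromal genes, and markers of such cells were listed beside them. Of 11 neuronal markers, 8 were under 1 TPM in all libraries, among them DCX, ELAVL4, RBFOX3 and GAP43. The summed level of the list was 35.7 to 41.2 TPM in the untreated and 41.9 to 43.4 TPM in the r-CRMP2 group, of which TUBB3 supplied the most. MAP2, a neuronal microtubule-associated protein, fell by 1.64 on the log2 scale (edgeR adjusted p = 1.09e-09). Of 12 fibroblast markers, 5 of 11 tested were higher and 3 lower (edgeR adjusted p under 0.05), against 28.2% and 30.1% of all genes tested. Marker lists were counted with TMM scaling only. The summed level of the fibroblast list was 1904 to 2000 TPM in the untreated and 2541 to 2554 TPM in the r-CRMP2 group. VIM made up most of that sum, with 1640 ± 35.0 and 2340 ± 1.72 TPM (SD, n = 3). By the same edgeR test, COL1A2, PDGFRA, LUM and THY1 were also higher, LUM narrowly (adjusted p = 0.0444), and COL1A1, PDGFRB and POSTN were lower. In TPM, which lacks the TMM correction, THY1 averaged 34.4 in untreated and 31 in r-CRMP2 libraries. COL1A2 averaged 19 and 19.3 TPM, so the rises of these genes depended on the scaling. FAP, which marks activated fibroblasts, was under 1 TPM in all libraries. Of 10 epithelial and ovarian carcinoma markers, 2 of 8 tested were higher and 2 lower, against the same 28.2% and 30.1% of all genes. Their sum was 4447 to 4710 TPM in the untreated and 3763 to 4087 TPM in the r-CRMP2 group, without composition correction. KRT18, at 1986 and 1816 TPM, was called higher on TMM-scaled counts (log2 fold change 0.20, edgeR adjusted p = 0.011). KRT8, at 1362 and 1110 TPM, was not called (0.03, edgeR adjusted p = 0.691), and KRT7 was called lower (-0.21, edgeR adjusted p = 0.0092). The part of these markers in the CRMP values was not tested.

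For each tested member, the 3 genes with the most similar log2 CPM over the 6 libraries were named as a description. For DPYSL2 they were SERTAD2, ABL1 and MYOF, each with a Pearson correlation of at least 0.9993, and 437 genes were above 0.99. The 6 points are 2 groups of 3 that share the TMM scaling, so a gene that differs between the groups with little spread within them reaches such a value. DPYSL4 was closest to HAND1 (0.9976), SESN3 (0.9960) and ABCB6 (0.9924), and DPYSL3 to CDK10 (0.9942), NOTCH2NL (0.9926) and NT5DC1 (0.9917). CRMP1 was closest to DCST1 (0.9914), ALKBH6 (0.9856) and MCOLN3 (0.9854), and 1 gene was above 0.99.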

How the data were processed

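RNA with a poly(A) tail from 3 untreated and 3 r-CRMP2-treated A2780 samples was sequenced. The authors deposited, for each library, raw read counts per gene and TPM values computed from counts and gene lengths. The submitters' processing notes name FastQC, HISAT2, DESeq2 and the build hg19, while the counting tool, the annotation and the use of strand were not given in the sources used here. Totals were 21888530 to 25711353 counts, and replicates differed by more than sampling noise (chi-square 3.62 to 10.3 per degree of freedom). In the files, 27 gene names had become dates.

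Counts were tested with edgeR 4.0.16 (limma 3.58.1, R 4.3.3), using TMM, its low-count filter, the quasi-likelihood test and Benjamini-Hochberg adjustment over 16222 genes, with thresholds of 0.05 and, for log2 fold change, 1. SEs come from the spread of log2 CPM (prior count 2), whereas intervals come from the fit. On simulated counts, the test recovered 78 of 100 genes given a log2 fold change of 0.5 and 94 of 100 given 1. There were 8 false calls among the unchanged genes of the 15959 tested. The changed genes were drawn from the better counted ones. Each gene was given the spread typical of its level and not its own, so recovery may be lower for the real genes. Few genes were changed there, in random directions and without a composition difference between the groups. The simulation therefore does not address the choice of scaling. Shares and ratios were compared by two-sided exact permutation tests. Alternatives were RLE factors, library size alone, DESeq2 1.42.0, no filter, at least 10 counts in every sample, a test against a fold of 2, a replicate block and leaving out each library.

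The members and the lists were chosen with earlier results of these data known. Named were all members, up to 3 largest rises and 3 largest falls per list at an adjusted p under 0.05, genes most correlated with a member, and defining markers. Promoter sequences are from RefSeq (GRCh38.p14), with coordinates never mixed with hg19. Entries for 4 of the 5 members were used.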

Additional observations from a re-analysis of the deposited data

How the results depend on the processing

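DPYSL2 kept its direction and its call under RLE factors, library size alone, DESeq2, both other filters, the replicate block and each left-out library, and DPYSL3 and DPYSL4 did so except with library size alone. With library size alone, log2 fold changes were 0.15 for DPYSL3 and 0.23 for DPYSL4, no longer past the threshold, and -0.67 for CRMP1, now past it, so that 1 member was higher and 1 lower. Of the partner genes, 6 were then higher and 24 lower, with 13.4% and 52.1% of all genes tested. Of 21 named partner genes, DYRK2, PPP1CB, PLXNA3 and NRP1 lost their call. Against a fold of 2, the log2 fold changes of 0.66 (DPYSL2), 0.46 (DPYSL3) and 0.54 (DPYSL4) did not pass, leaving 0 members higher, and 0 partner genes were higher and 1 lower. Of all 16222 genes tested, 836 passed that test in either direction. The log2 ratio of the family's summed level was 0.27 in TPM and 0.60 in CPM. With each library left out in turn, the log2 fold change was 0.62 to 0.70 for DPYSL2, 0.37 to 0.56 for DPYSL3, 0.40 to 0.70 for DPYSL4 and -0.47 to -0.18 for CRMP1, and 3 members were called higher each time. Pairing by replicate number had no support in the labels, and the deviations of same-numbered libraries correlated at -0.0209, 0.0038 and -0.0252. With the replicate block, the log2 fold change was 0.66 for DPYSL2, 0.47 for DPYSL3, 0.55 for DPYSL4 and -0.37 for CRMP1, and 18 partner genes were higher and 13 lower. Depth limits DPYSL5 and, with 27 to 61 counts a library, CRMP1, whose interval spans -0.89 to 0.16.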
